A study of Mus musculus with 11 samples.

Results

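Keratins are the intermediate filament proteins of epithelial cells, and the genes described here are those whose symbol is Krt followed by a number and at most 1 letter, with the keratin-associated proteins (Krtap) left out. That rule found 48 keratin genes among the 18193 genes that the array measured with a probe set of 1 gene symbol. Of the 48 keratins, 22 had a probe set above the array's own median on at least 2 arrays and were tested, and 26 did not and are called near background here. The arrays measured RNA from 4 structures of kidneys and ureters of wild-type CD-1 mouse embryos at E15.5 (Theiler stage 23), each cut out of frozen, stained sections by laser capture. They were the cortical collecting duct (2 arrays), the early proximal tubule (3 arrays), the ureteral smooth muscle (3 arrays) and the urothelium, the lining of the ureter (3 arrays). Sex was recorded as unknown, no animal carried an allele or a treatment, and each array came from a pool of about 50 sections from 5 kidneys whose RNA had gone through 2 rounds of amplification. The labels do not say whether pools of a structure came from separate animals, so the p-values measure the spread between pools, which may be technical in part. In captured tissue, fewer cells of a type and less RNA per cell cannot be told apart.

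A keratin filament is built from pairs of 1 acidic type I and 1 basic type II keratin, and each epithelium uses its own pairs. Single-layered epithelia use the type II keratins Krt8 and Krt7 with the type I keratins Krt18 and Krt19, while the basal cells of stratified epithelia use Krt5 with Krt14 or Krt15. The urothelium combines both kinds in the adult, with Krt20 known as a marker of its surface cells. The type II genes and Krt18 lie together on mouse chromosome 15, and the other type I genes lie together on chromosome 11.

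Promoters are shown for the partners Krt8 and Krt18 and for Krt7, which are among the keratins called below, and for Krt5, the type II keratin of basal cells; none is printed for Krt19. Each window runs from 250 bases before to 50 bases after the annotated gene start, 5′ to 3′ on the gene's strand, from RefSeq on GRCm38.p6. Capitals mark the letters TATAAA (the core of a TATA box) or GGGCGG (the core of a GC box) on either strand. The windows are chr15:102004293-102004592 (minus strand) for Krt8, chr15:102027966-102028265 (plus strand) for Krt18, chr15:101412153-101412452 (plus strand) for Krt7 and chr15:101712856-101713155 (minus strand) for Krt5.
Krt8: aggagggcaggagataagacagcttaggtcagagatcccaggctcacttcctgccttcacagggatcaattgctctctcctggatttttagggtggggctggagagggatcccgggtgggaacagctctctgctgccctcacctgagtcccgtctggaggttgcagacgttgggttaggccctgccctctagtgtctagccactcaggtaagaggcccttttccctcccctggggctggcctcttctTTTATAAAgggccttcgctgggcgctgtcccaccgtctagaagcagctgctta
Krt18: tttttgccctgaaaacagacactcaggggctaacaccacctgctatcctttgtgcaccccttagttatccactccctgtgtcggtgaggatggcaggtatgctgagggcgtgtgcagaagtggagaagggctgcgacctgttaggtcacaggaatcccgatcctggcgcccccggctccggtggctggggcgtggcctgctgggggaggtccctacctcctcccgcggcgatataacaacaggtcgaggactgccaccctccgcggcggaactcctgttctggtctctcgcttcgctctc
Krt7: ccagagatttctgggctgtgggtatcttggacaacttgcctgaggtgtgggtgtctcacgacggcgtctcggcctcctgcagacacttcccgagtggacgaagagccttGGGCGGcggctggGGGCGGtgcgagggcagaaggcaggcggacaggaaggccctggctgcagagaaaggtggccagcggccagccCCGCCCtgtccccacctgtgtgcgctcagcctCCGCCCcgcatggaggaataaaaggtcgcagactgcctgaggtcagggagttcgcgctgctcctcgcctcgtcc
Krt5: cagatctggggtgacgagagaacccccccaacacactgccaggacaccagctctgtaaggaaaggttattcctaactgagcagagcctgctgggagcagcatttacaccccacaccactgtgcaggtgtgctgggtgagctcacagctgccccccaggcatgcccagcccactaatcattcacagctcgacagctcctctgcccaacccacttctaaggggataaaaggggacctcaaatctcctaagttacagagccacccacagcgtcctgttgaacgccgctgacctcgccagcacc

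These letters differed between keratins that were high in the same structures. The Krt8 window held TATAAA on both strands, 2 overlapping matches at the annotated start, and no GGGCGG. The Krt7 window held 4 matches to GGGCGG and none to TATAAA, and the Krt18 and Krt5 windows held neither. Krt8 and Krt18 are direct neighbours that start 23.9 kb apart and are read from opposite strands. Of 37 windows of 36 keratin genes, 19 held TATAAA (51.4%), against 13.6% of all 32851 windows in the table. GGGCGG was in 2 of the 37 keratin windows (5.41%), those of Krt7 and Krt75, against 35.7% of all windows. These counts describe letters in a fixed window and show neither a binding site nor a start site in use. Windows were found for 32 of the 48 keratins on the array and for 15 of the 22 tested.

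Levels are log2(signal + 55) throughout, on which a signal of 0 would read 5.78, and differences are taken between arrays for 1 gene, since probe sets differ in how brightly they read. Array medians, other gene families and summed marker lists are given only to place a level against background. The array medians, which mark the background, lay between 8.24 and 8.83. RNA quality varied between arrays: the ratio of the 3′ to the 5′ probe set of Gapdh was 16.7, 55.3 and 29.7 in the 3 urothelium pools and 6.79 to 25.9 in the 8 others. For 10 of the 11 arrays the most correlated other array was of the same structure. The exception was collecting duct pool 2, which correlated 0.909 with urothelium pool 3 and 0.905 with collecting duct pool 1. The labels hold a date-like mark, of unstated meaning, that puts the arrays into 4 sets called label batches here. The urothelium shared label batches with the muscle but none with the collecting duct or the proximal tubule. Of the defining markers, 8 of 8 muscle markers were called higher in the muscle, 8 of 8 proximal tubule markers in the proximal tubule, 7 of the 8 urothelial markers tested in the urothelium, and 4 of 8 collecting duct markers in the collecting duct, each against the mean of the other 3 structures. Over all genes tested, 6.05%, 9.53%, 1.65% and 1.42% were called higher in these comparisons, in the same order.

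Most keratins lay where genes of other tissues lie. Odorant receptors (Olfr), which serve smell, and keratin-associated proteins, which build hair, mark that range on the same arrays. The highest of 44 odorant receptor probe sets reached 9.77 and the highest of 43 keratin-associated probe sets reached 10.59. By the rule used for keratins, 9 of the 44 (20.5%) and 12 of the 43 (27.9%) passed, beside 26 of 61 keratin probe sets (42.6%) and 69.9% of all probe sets with 1 symbol. Passing the filter therefore does not show that a transcript was present. Of the 48 keratins, 12 had any value above every odorant receptor value: Krt7, Krt8, Krt80, Krt18, Krt19, Krt20, Krt23, Krt5, Krt10, Krt81, Krt32 and Krt42. For 8 of these, Krt7, Krt8, Krt18, Krt19, Krt20, Krt10, Krt81 and Krt42, a value also lay above every keratin-associated value. The remaining 10 tested keratins, Krt6a, Krt75, Krt79, Krt77, Krt78, Krt72, Krt83, Krt86, Krt31 and Krt88, stayed within the odorant receptor range on all 11 arrays.

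**Figure D1:**
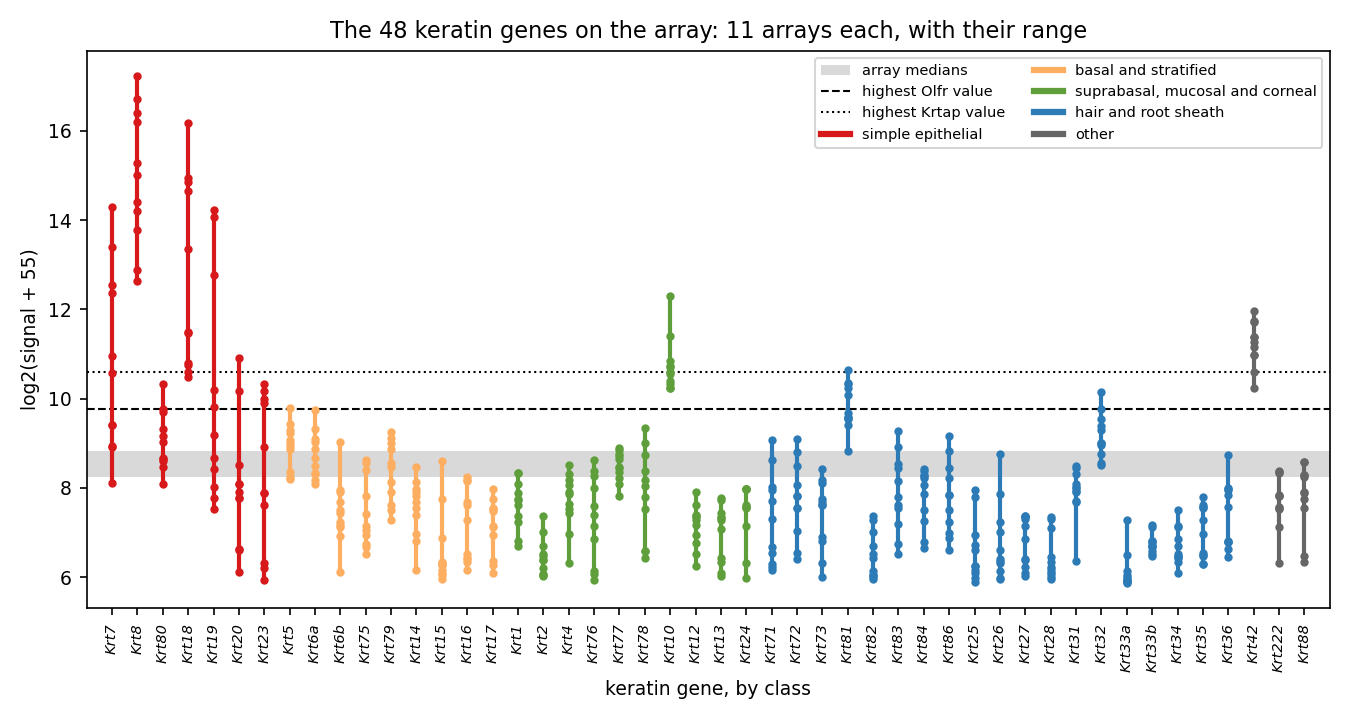
Level of each of the 48 keratins on the 11 arrays, in log2(signal + 55), coloured by keratin class. The grey band is the range of the array medians. The dashed line is the highest odorant receptor value (9.77) and the dotted line the highest keratin-associated value (10.59). Most keratins sit in or below the grey band, and Krt8 is the one keratin with all points above 12.

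Among the 48 keratins, 6 were above the array median on all 11 arrays (Krt8, Krt18, Krt10, Krt81, Krt32 and Krt42) and 18 were above it on none. Above the median on every array of the structure were 13 keratins in the collecting duct (2 arrays), 11 in the urothelium, 8 in the proximal tubule and 7 in the muscle. Above it on no array of the structure were 32, 26, 31 and 29 keratins, in the same order. By class, set from textbook knowledge, all 7 simple epithelial keratins were tested, 4 of 9 basal and stratified keratins, 3 of 10 suprabasal, mucosal and corneal keratins, 6 of 19 hair and root sheath keratins and 2 of 3 others.

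Krt8, the type II keratin of nearly all simple epithelia, was bright in every structure. Its level was 16.71, 17.23 and 16.21 in the urothelium, 16.41 and 15.28 in the collecting duct, 14.21, 15.01 and 14.41 in the proximal tubule and 13.79, 12.64 and 12.89 in the muscle. The muscle pools were lowest with no overlap with any other structure, and collecting duct pool 1 reached into the urothelial range. All 3 probe sets of Krt8 gave a similar difference of the urothelium from the other structures, 2.22, 2.18 and 2.52 on the log2 scale.

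Krt18, the usual type I partner of Krt8, read 14.94, 16.17 and 14.66 in the urothelium and 14.86 and 13.35 in the collecting duct. It read 10.59, 11.47 and 11.50 in the proximal tubule and 10.75, 10.48 and 10.81 in the muscle. Proximal tubule and muscle overlapped for Krt18, whereas for Krt8 they did not. The partners therefore had unlike profiles in the proximal tubule: its Krt8 mean was 1.30 below that of the collecting duct (SE 0.52) and 1.44 above that of the muscle (SE 0.46), while its Krt18 mean was 2.92 below (SE 0.56) and 0.50 above (SE 0.50). The difference between the partners was not itself tested.

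Krt7, a type II keratin of ducts and urothelium, was 14.29, 13.39 and 12.55 in the urothelium and 12.38 and 10.95 in the collecting duct. It was 8.91, 8.93 and 9.42 in the proximal tubule and 10.57, 8.11 and 9.41 in the muscle. Every urothelial pool stood above every other pool, and muscle pool 1 stood more than 1 above the other muscle pools. Krt19, a type I keratin without a tail domain, had the largest difference of the urothelium from the rest among the 22 tested keratins: 14.07, 14.22 and 12.77 there against 10.19 and 9.82 in the collecting duct. It was 7.77, 8.43 and 7.52 in the proximal tubule and 9.18, 8.67 and 8.03 in the muscle, near the array medians. The collecting duct was intermediate for Krt19, above all 6 pools of those lower structures and below all 3 urothelial pools.

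Krt23, a type I keratin, was 9.99, 9.90 and 10.17 in the urothelium and 10.32 and 8.91 in the collecting duct. It was 6.33, 5.93 and 7.61 in the proximal tubule and 7.88, 6.21 and 7.88 in the muscle, all below the array medians. Urothelium and collecting duct overlapped for Krt23, and both lay above all pools of the other structures. Krt20 was 10.92 and 10.18 in urothelium pools 1 and 2 but 8.09 in pool 3. Its other values were 6.60 and 7.77 in the collecting duct, 8.51, 7.92 and 7.78 in the proximal tubule and 6.12, 8.09 and 6.64 in the muscle. Krt20 was therefore above the array median in 2 of 11 pools, and urothelium pool 3 overlapped the other structures. Krt80, a type II keratin that lies next to Krt7 on the chromosome, was 10.34 and 9.70 in the collecting duct and 9.16, 9.33 and 9.78 in the urothelium. In the proximal tubule Krt80 was 8.61, 9.02 and 8.64, and in the muscle 8.67, 8.48 and 8.10, near the array medians. Its highest value was in the collecting duct, unlike that of Krt7, which was in the urothelium.

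**Figure D2:**
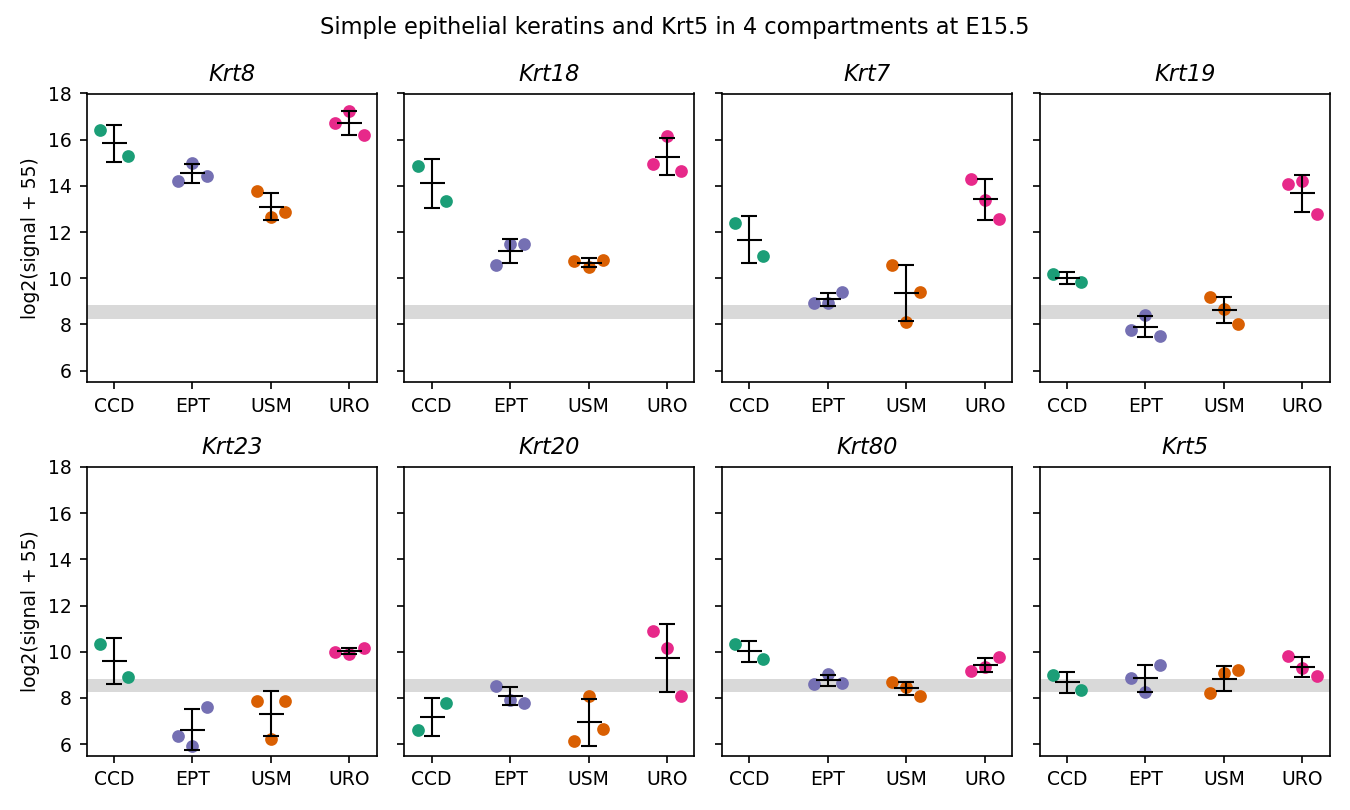
Level of 8 keratins on each array, in log2(signal + 55), by structure; each dot is 1 array, bars are the mean ± SD and the grey band is the range of the array medians (8.24 to 8.83). Krt7 and Krt19 separate the urothelium from all other pools, Krt18 and Krt23 group urothelium with collecting duct, and Krt5 lies near the band in every structure.

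The first question the design poses is how each structure differs from the mean of the other 3. In the urothelium, 5 of the 22 tested keratins (22.7%) were called higher, at an adjusted p under 0.05 and a log2 difference of at least 1, and none lower, nor did any lower keratin have an unadjusted p under 0.05. Over all 13614 genes tested in that comparison, 1.65% were called higher and 0.713% lower. The 5 keratins were Krt19, higher by 4.84 ± 0.40 (SE; limma with Benjamini-Hochberg adjustment, adjusted p = 7.88e-05), Krt7 by 3.37 ± 0.52 (adjusted p = 0.00421), Krt18 by 3.27 ± 0.42 (adjusted p = 0.00153), Krt8 by 2.22 ± 0.39 (adjusted p = 0.00878) and Krt23 by 2.17 ± 0.48 (adjusted p = 0.032). All 5 are simple epithelial keratins. Pools of the urothelium and of the rest did not overlap for Krt19 and Krt7 and did for Krt8, Krt18 and Krt23, in each case through the collecting duct. Krt20 was 2.33 ± 0.57 higher and missed the threshold (limma adjusted p = 0.0521). It had passed the filter only through urothelium pools 1 and 2, where it is high. With every probe set tested its limma adjusted p was 0.0664. With a pseudocount of 190 Krt20 was called at 1.71 (adjusted p = 0.0285) and with probe sets averaged per gene at 2.33 (adjusted p = 0.0466).

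The urothelial calls differed with the handling of the label batch, for reasons that were not tested. With it as a random block all 26 calls over the 8 comparisons were kept (correlation within label batches 0.0268). With it as a fixed block no keratin was called: Krt19 kept its size, 5.02 (limma adjusted p = 0.108), as did Krt18, 2.93 (adjusted p = 0.45), while Krt8 stood at 1.66 (adjusted p = 0.734), Krt7 at 1.93 (adjusted p = 0.583) and Krt23 at 0.72 (adjusted p = 0.988). Most of that comparison lies between label batches, since the urothelium shares them with the muscle alone. Urothelium pool 2 also decided calls: without it 3 keratins were called, with Krt8 at 1.96 (adjusted p = 0.0691) and Krt23 at 2.23 (adjusted p = 0.121). Krt23 also lost its call without collecting duct pool 2, proximal tubule pool 1 or 2, or urothelium pool 1 or 3, with adjusted p from 0.0552 to 0.111 and differences from 1.93 to 2.18, and with a pseudocount of 12 (2.70, adjusted p = 0.0918). Krt20 was called without urothelium pool 3, at 3.15 (adjusted p = 0.00609), and without muscle pool 2, at 2.52 (adjusted p = 0.0372).

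For the collecting duct against the mean of the other 3, no keratin was called, while limma gave 4 keratins an unadjusted p under 0.05, all higher. Over all genes 1.42% were called higher and 0.624% lower. The 4 highest differences were in Krt18, 1.73 ± 0.48 (limma adjusted p = 0.0971), Krt23, 1.63 ± 0.55 (adjusted p = 0.175), Krt80, 1.15 ± 0.36 (adjusted p = 0.133), and Krt8, 1.06 ± 0.44 (adjusted p = 0.312). Krt19 differed from that mean by -0.07 ± 0.45, as the urothelium stood above the collecting duct and the other structures below it. Krt18 passed when urothelium pool 2 was left out, at 1.88 (limma adjusted p = 0.044), and with a pseudocount of 190, at 1.67 (adjusted p = 0.0476).

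In the proximal tubule, 4 of the 22 (18.2%) were called lower and none higher, nor did any higher keratin have an unadjusted p under 0.05, and over all genes 6.41% were called lower and 9.53% higher. Krt19 differed by -2.87 ± 0.40 (limma adjusted p = 0.000284). The differences of the others were -2.16 ± 0.42 for Krt18 (adjusted p = 0.00338), -2.36 ± 0.48 for Krt23 (adjusted p = 0.00418) and -2.39 ± 0.52 for Krt7 (adjusted p = 0.00684). Krt8 differed by -0.68 ± 0.39 (adjusted p = 0.265). Leaving out any 1 array kept the count at 4. With the label batch as a fixed block, Krt19 alone passed, at -2.93 (adjusted p = 0.0375), and Krt18 stood at -1.91 (adjusted p = 0.229), Krt23 at -1.25 (adjusted p = 0.434) and Krt7 at -1.18 (adjusted p = 0.386).

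In the muscle, 4 of the 22 (18.2%) were called lower and 1 higher (4.55%), and over all genes 9.12% were called lower and 6.05% higher. The lower ones were Krt18, -2.83 ± 0.42 (limma adjusted p = 0.000459), Krt8, -2.59 ± 0.39 (adjusted p = 0.000471), Krt7, -2.02 ± 0.52 (adjusted p = 0.0174), and Krt19, -1.90 ± 0.40 (adjusted p = 0.00488). Krt7 lost its call without muscle pool 2 (-1.39, adjusted p = 0.115) or pool 3 (-2.05, adjusted p = 0.0573). Krt19 lost it with the label batch as a fixed block (-1.94, adjusted p = 0.0512). Krt80 differed by -0.98 ± 0.31 (adjusted p = 0.0476), short of the size required, and was called without collecting duct pool 2 (-1.09), without urothelium pool 1 (-1.03) or with a pseudocount of 12 (-1.08). Without muscle pool 2 the muscle had 3 keratins called. Krt23 was called in the muscle without collecting duct pool 2 (-1.67, limma adjusted p = 0.0384) or with a pseudocount of 190 (-1.07, adjusted p = 0.0323), Krt20 without urothelium pool 3 (-1.65, adjusted p = 0.0271) and Krt88 without muscle pool 3 (-1.63, adjusted p = 0.0135).

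The keratin called higher in the muscle was Krt83, a type II hair keratin, by 1.45 ± 0.42 (limma adjusted p = 0.031). It read 8.54, 9.28 and 8.92 there, against 7.61 and 6.74 in the collecting duct, 8.44, 6.53 and 8.15 in the proximal tubule and 7.79, 7.55 and 7.20 in the urothelium. The muscle pools did not overlap the rest, yet all stayed below the highest odorant receptor value. The call was lost with the label batch as a fixed block (1.24, adjusted p = 0.205), with a pseudocount of 190 (0.96), and without collecting duct pool 2 or any single muscle pool (1.27 to 1.63, adjusted p 0.0546 to 0.128). Krt83 was above the array median on the 3 muscle arrays and on no other, so it entered the test only through the structure where it is high; with every probe set tested its adjusted p was 0.04.

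**Figure D3:**
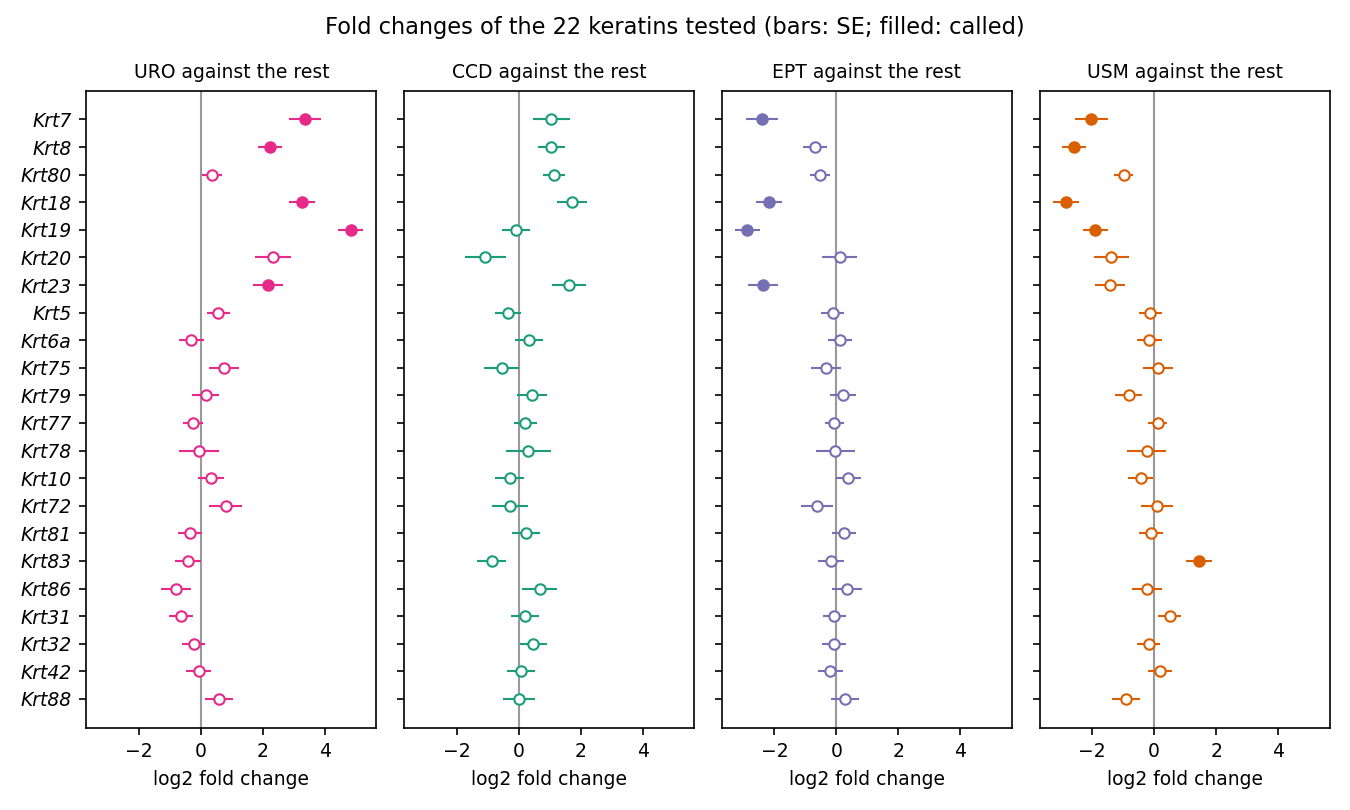
Log2 difference of each structure from the mean of the other 3 for the 22 tested keratins, with bars of 1 SE; filled points were called at adjusted p under 0.05 and a difference of at least 1. Filled points are Krt7, Krt8, Krt18, Krt19 and Krt23 to the right in the urothelium, none in the collecting duct, 4 to the left in the proximal tubule, and 4 to the left with Krt83 to the right in the muscle.

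Pairs of structures were compared in the same fit and share arrays with the comparisons above. Between urothelium and muscle, the lining of the ureter and the coat around it, 6 of 22 keratins (27.3%) were higher in the urothelium and none lower (1 lower at an unadjusted p under 0.05), with 5.03% of all genes higher and 2.93% lower. The differences were 5.06 ± 0.47 for Krt19 (limma adjusted p = 5.45e-05), 4.57 ± 0.50 for Krt18 (adjusted p = 0.000121), 4.04 ± 0.62 for Krt7 (adjusted p = 0.00129), 3.61 ± 0.46 for Krt8 (adjusted p = 0.000382), 2.78 ± 0.69 for Krt20 (adjusted p = 0.0236) and 2.70 ± 0.57 for Krt23 (adjusted p = 0.0097). Pools of the 2 structures overlapped for Krt20 and for none of the other called keratins. This pair shares 2 label batches, and all 6 keratins were higher in the urothelium within each. The within-batch differences were 5.47 and 4.89 for Krt19, 4.61 and 4.19 for Krt18, 3.56 and 3.71 for Krt7, 3.83 and 2.92 for Krt8, 2.50 and 4.79 for Krt20 and 2.16 and 2.11 for Krt23. With the label batch as a fixed block Krt23 was lost (2.14, adjusted p = 0.0756) and the other 5 passed. Krt20 was lost without muscle pool 1 (2.36, adjusted p = 0.0951) or pool 3 (2.62, adjusted p = 0.0796). Krt20 had entered the test only through urothelium pools 1 and 2, where it is high; with every probe set tested its adjusted p was 0.0308. Krt88 was called without muscle pool 3 (1.85, adjusted p = 0.0223).

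Between urothelium and collecting duct, the 2 epithelia that line urine-carrying ducts, 1 of 22 keratins (4.55%) was called, higher in the urothelium, with 0.162% of all genes called higher and 0.0955% lower. It was Krt19, by 3.69 ± 0.53 (limma adjusted p = 0.0167). Krt7 was 1.74 ± 0.70 higher (adjusted p = 0.327) and Krt20 2.55 ± 0.77 higher (adjusted p = 0.203), neither with overlap between pools. Krt18 differed by 1.15 ± 0.56 (adjusted p = 0.44), Krt8 by 0.87 ± 0.52 (adjusted p = 0.542) and Krt23 by 0.41 ± 0.64 (adjusted p = 0.851). These intervals do not show equal levels. The Krt19 call was lost without either collecting duct pool (3.87 without pool 1, adjusted p = 0.138, and 3.50 without pool 2, adjusted p = 0.182), without urothelium pool 1 (3.50, adjusted p = 0.0703) or pool 2 (3.42, adjusted p = 0.0607). Without urothelium pool 3 the call was joined by Krt20, 3.36 (adjusted p = 0.0288). No label batch holds both structures. In the fit with it as a fixed block Krt19 stood at 3.87 (adjusted p = 0.801), so structure and label batch can be separated only through the other structures.

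Between collecting duct and proximal tubule, kidney epithelia that come from the ureteric bud and from nephron progenitors, 4 of 22 (18.2%) were higher in the collecting duct and none lower, also at an unadjusted p under 0.05, with 2.19% of all genes higher and 3.65% lower. They were Krt23, 2.99 ± 0.64 (limma adjusted p = 0.0129), Krt18, 2.92 ± 0.56 (adjusted p = 0.00705), Krt7, 2.58 ± 0.70 (adjusted p = 0.0467), and Krt19, 2.10 ± 0.53 (adjusted p = 0.0332). Krt8 was 1.30 ± 0.52 higher with no overlap and was not called (adjusted p = 0.192). Within the 2 shared label batches the differences were 2.14 and 3.98 for Krt23, 1.86 and 4.27 for Krt18, 1.78 and 3.47 for Krt7, 1.84 and 2.42 for Krt19 and 0.57 and 2.20 for Krt8, all higher in the collecting duct. With the label batch as a fixed block Krt19 was lost (2.09, adjusted p = 0.0623) and the other 3 passed.

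That comparison leaned on few pools. Without collecting duct pool 1 no keratin was called: Krt18 stood at 2.16 (limma adjusted p = 0.113), Krt19 at 1.91 (adjusted p = 0.186), Krt23 at 2.29 (adjusted p = 0.158) and Krt7 at 1.87 (adjusted p = 0.309). Without collecting duct pool 2, or without any 1 proximal tubule pool, Krt7 was lost (2.49 to 3.30, adjusted p 0.0706 to 0.126). Krt19 was lost as well without collecting duct pool 2 (2.28, adjusted p = 0.122), proximal tubule pool 1 (2.02, adjusted p = 0.0812) or pool 3 (1.90, adjusted p = 0.106), and Krt23 without proximal tubule pool 2 (2.64, adjusted p = 0.0586). Krt7 was also lost without muscle pool 3 (2.58, adjusted p = 0.0589) or urothelium pool 2 (2.58, adjusted p = 0.0534). With every probe set tested, Krt7 had an adjusted p of 0.0606, and with a pseudocount of 12 one of 0.0776.

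Between proximal tubule and muscle, 1 of 22 keratins (4.55%) was called, higher in the proximal tubule, with 12.3% of all genes higher and 8.06% lower. It was Krt8, by 1.44 ± 0.46 (limma adjusted p = 0.043), with no overlap. Krt18 differed by 0.50 ± 0.50 (adjusted p = 0.54), Krt7 by -0.28 ± 0.62 (adjusted p = 0.803) and Krt19 by -0.72 ± 0.47 (adjusted p = 0.325). The Krt8 call was lost without any 1 proximal tubule pool, without muscle pool 2 or 3 or without urothelium pool 1 (1.20 to 1.60, adjusted p 0.0534 to 0.157). It was lost too with the label batch as a fixed block (2.04, adjusted p = 0.195), with a pseudocount of 12 (adjusted p = 0.0554) and with every probe set tested (adjusted p = 0.0548). With quantile normalization Krt83 was called too, lower in the proximal tubule (-1.39, adjusted p = 0.0424), and without muscle pool 3 Krt88 was called, higher there (1.62, adjusted p = 0.021). In the 1 label batch that holds both structures, Krt8 was 1.57 higher in the proximal tubule.

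Medians over the keratins as a whole lay near 0. Over all 48, with no filter, the median log2 difference from the mean of the other structures was 0.04 in the urothelium, 0.19 in the collecting duct, -0.13 in the proximal tubule and -0.19 in the muscle. Over the 22 tested, the same medians were 0.35, 0.22, -0.09 and -0.24, beside 0.01, -0.03, 0.05 and -0.07 over all genes tested. The calls came from the simple epithelial class apart from Krt83.

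The basal and stratified keratins were low in every structure. Krt5 read 9.80, 9.29 and 8.95 in the urothelium, 9.0 and 8.35 in the collecting duct, 8.87, 8.24 and 9.43 in the proximal tubule and 8.21, 9.08 and 9.23 in the muscle, and the structures overlapped. The urothelium exceeded the mean of the others by 0.56 ± 0.37 for Krt5 (limma adjusted p = 0.497). Krt14, the usual partner of Krt5, lay between 6.17 and 8.48 and Krt17 between 6.10 and 7.97, below the array median on all 11 arrays. A further probe set, annotated to both Krt17 and Krt14, was given to neither. It was above the array median in both collecting duct pools (9.36 and 8.47) and in proximal tubule pools 2 and 3 (8.34 and 8.89). It was also above it in muscle pool 2 (8.78), and below it in all other pools, with 6.95, 7.68 and 6.35 in the urothelium. Krt15, a basal keratin that adjoins Krt19, read 8.60, 7.75 and 6.88 in the urothelium and 5.97 to 6.35 in the 8 other pools. No urothelial value overlapped the rest, but 1 of them was above its array's median, so Krt15 did not pass the filter. With every probe set tested, Krt15 was 1.56 ± 0.36 higher in the urothelium than in the mean of the others (limma adjusted p = 0.051), which missed the threshold. Trp63, the transcription factor that marks basal cells, was bright in the same urothelial pools, at 14.54, 13.54 and 12.44, and 5.18 ± 0.84 above the mean of the other structures (adjusted p = 0.00602).

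The rest of that class were Krt6a, between 8.10 and 9.74, Krt79, between 7.29 and 9.25, and Krt75, between 6.53 and 8.62, all tested and called in none of the 8 comparisons. Those near background, Krt6b, Krt14, Krt15, Krt16 and Krt17, covered 5.97 to 9.04. The probe sets of Krt6a disagreed in the difference of the urothelium from the rest, at -0.30 for the one used and 0.48 and 0.24 for the others. Among suprabasal, mucosal and corneal keratins, Krt10, the type I keratin of the upper epidermis, was above the median on all arrays, from 10.24 to 12.31 with the highest value in proximal tubule pool 3. Krt10 in the urothelium was 0.33 ± 0.41 above the mean of the other structures (limma adjusted p = 0.744). Krt1, its epidermal partner, was below the array median on all 11 arrays, between 6.70 and 8.34. Krt77 (7.81 to 8.89) and Krt78 (6.44 to 9.34) were tested and not called. Near background in that class were Krt1, Krt2, Krt4, Krt12, Krt13, Krt24 and Krt76, from 5.94 to 8.62. Krt13, a keratin of mucosal and adult urothelial layers, had probe sets that disagreed in the difference of the urothelium from the rest (1.27, 0.23 and -0.76), all on dim values.

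Among hair and root sheath keratins, Krt81 lay between 8.84 and 10.64 and Krt32 between 8.52 and 10.15. Both were above the median on all 11 arrays and called in no comparison. Krt31, Krt72, Krt83 and Krt86 passed the filter within the odorant receptor range. The other 13, Krt25, Krt26, Krt27, Krt28, Krt33a, Krt33b, Krt34, Krt35, Krt36, Krt71, Krt73, Krt82 and Krt84, were near background at 5.87 to 9.07. Of the 3 other keratins, Krt42 lay between 10.25 and 11.97 in all structures by 1 probe set, while its other probe set had structure means of 8.52 to 8.86. Krt88 lay between 6.34 and 8.59, and Krt222 was near background at 6.31 to 8.37. The keratins above the median on all 11 arrays and called in no comparison were thus Krt10, Krt81, Krt32 and Krt42, none of them a simple epithelial keratin.

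Among neighbouring keratins, Krt19 lies between Krt15, which like Krt19 had its 3 highest values in the urothelium, and Krt9, which was not analysed here. Krt20 and Krt23 adjoin each other, yet Krt23 was above the median in both collecting duct pools and Krt20 in neither. Krt8 lies between Krt18, high in the same structures, and Krt78, called in none of the 8 comparisons.

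Partners and regulators of keratins came from lists of textbook genes. Of 14 desmosome and plakin genes tested, whose products anchor keratin filaments at cell junctions, 4 were called higher in the urothelium than in the mean of the others and 10 were not called, with a list median of 1.67 beside 0.01 over all genes and 1.65% of all genes called higher. Perp, a desmosomal membrane protein controlled by Trp63, was higher by 3.48 ± 0.53 (limma adjusted p = 0.00395). Dsc2, a desmosomal cadherin, was higher by 3.14 ± 0.58 (adjusted p = 0.0128). Dsp, the linker between desmosomes and keratin, was higher by 1.95 ± 0.42 (adjusted p = 0.0306). In the collecting duct 1 of the 14 was called higher, beside 1.42% of all genes: Dsc2, by 3.28 ± 0.67 (limma adjusted p = 0.0236). Dsp differed there by 1.92 ± 0.49 (adjusted p = 0.0646) and Perp by -2.04 ± 0.61 (adjusted p = 0.122). Between urothelium and collecting duct 1 of the 14 was called, higher in the urothelium, beside 0.162% of all genes. In the muscle 9 of the 14 were called lower, with a median of -1.90 beside -0.07 and 9.12% of all genes called lower. Dsp there read 8.74, 9.97 and 8.41 against 12.44 to 14.53 in the 8 epithelial pools, and the difference was -4.55 ± 0.42 (adjusted p = 1.4e-05). In the proximal tubule 1 of the 14 was higher and 1 lower: Pkp2, a desmosomal plaque protein, by 1.86 ± 0.50 (adjusted p = 0.0229), and Dsc2, by -2.09 ± 0.58 (adjusted p = 0.0275). Those counts are near the shares over all genes, 9.53% higher and 6.41% lower. Dsp in the proximal tubule was 13.03, 13.39 and 12.44, above all muscle pools, as was Krt8, while the proximal tubule overlapped the muscle for Krt18, Krt7 and Krt19.

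Regulators of keratin genes and of stratified epithelium numbered 15, all tested, and 10 were called higher in the urothelium with none lower and a median of 2.57, beside 1.65% of all genes called higher. Foxa1, a pioneer factor of endodermal and urothelial cells, was higher by 5.18 ± 0.39 (limma adjusted p = 6.4e-05). Pparg, a nuclear receptor of urothelial differentiation, was higher by 4.0 ± 0.62 (adjusted p = 0.00443). Grhl3, a factor of surface epithelia, was higher by 2.69 ± 0.41 (adjusted p = 0.00364). Foxa1 read 15.31, 16.01 and 14.42 in the urothelium, 13.06 and 13.41 in the collecting duct, 11.74, 10.64 and 10.39 in the muscle and 6.06, 6.08 and 6.03 in the proximal tubule. The proximal tubule was lower for 11 of the 15 regulators, with a median of -2.66, beside 6.41% of all genes called lower. In the collecting duct 4 of the 15 were higher and 11 not called, beside 1.42% of all genes called higher. These 4 were Tfap2a, Ehf, Foxa1 and Gata3, and all but Tfap2a were also called higher in the urothelium. Between urothelium and collecting duct, which share no label batch, none of the 15 was called and the median was 0.45. In that comparison 8 of the 15 had an unadjusted limma p under 0.05.

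Organisers and chaperones of keratin filaments gave 2 of 9 called higher in the urothelium, beside 1.65% of all genes. These were Trim29, 2.11 ± 0.37 (limma adjusted p = 0.00871), and the small heat shock protein Hspb1, 1.69 ± 0.37 (adjusted p = 0.0311). The 14 other intermediate filament genes tested had none called in the urothelium, where 1 had an unadjusted p under 0.05, and 3 called higher in the muscle, beside 6.05% of all genes. Vim, the filament of mesenchymal cells, read 15.39, 15.49 and 16.05 in the muscle and 11.68 to 14.78 elsewhere, higher by 2.57 ± 0.42 (adjusted p = 0.000967). Des, the muscle filament, was higher by 1.51 in the muscle. It read 9.28, 8.25 and 8.45 there and 8.25, 6.56 and 9.17 in the proximal tubule, so these structures overlapped. Des was above the array median on 2 of 11 arrays, those of muscle pool 1 and proximal tubule pool 3. Vim and Krt8 thus had opposite signs in the muscle.

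Signals of other cell types are given here beside the keratin levels. In the muscle, Krt8 and Krt18 stood above every odorant receptor and keratin-associated value in all pools but Krt18 in muscle pool 2 (10.48). The summed level of 8 pan-epithelial markers was 12.81, 11.88 and 11.59 in the muscle pools, against 15.08 to 17.41 in the 8 epithelial pools, and 5 of the 8 were above the array median on every muscle array. Epcam, an epithelial adhesion protein, read 11.88, 9.52 and 9.86 there. Muscle pool 1 held the highest muscle value of Krt7, Krt8 and Krt19, of Trp63 and of 5 of the 8 pan-epithelial markers, and the lowest of Cldn7, Ap1m2 and Rab25. The highest muscle value of Krt18 was in pool 3. In the urothelium, the summed level of 8 muscle markers was 16.07, 15.42 and 13.67, against 18.10 to 18.34 in the muscle and 11.56 to 12.61 in the collecting duct and proximal tubule. Urothelium pool 3, the lowest in muscle markers, was also the lowest in Krt7, Krt8, Krt18, Krt19, Krt20 and Trp63 among the urothelial pools, and the highest in Krt23 and Krt80. Its summed urothelial markers were 15.43, against 16.86 and 16.97 in the other urothelial pools and 15.70 and 15.46 in the collecting duct. Of that list, Shh alone was higher in both collecting duct pools (15.39 and 14.93) than in urothelium pool 3 (12.56). Upk1b read 8.76 and 8.88 in the collecting duct against 11.54 in urothelium pool 3, and Upk3a read 8.43 and 8.58 against 12.36.

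Mesothelium, the covering of the organ, also makes keratins. Its markers summed to 12.87, 11.93 and 11.98 in the urothelium and 9.76 to 11.60 elsewhere. Of the 6 tested, 2 were called higher in the urothelium, beside 1.65% of all genes. These were Msln and Upk3b, and Upk3b is also among the urothelial markers. The other 4 were not called, with log2 differences from -0.17 (Wt1) to 0.42 (Rspo1). Epidermal markers summed to 13.01, 13.64 and 11.38 in the urothelium and 10.61 to 11.92 elsewhere. Here too 2 of 6 tested, Ivl and Sprr1a, were called higher in the urothelium, beside 1.65% of all genes. The other 4 were not called, with log2 differences from -0.80 (Lce1a1) to 0.10 (Lor), and the list median was -0.27. Collecting duct markers summed to 13.99, 14.05 and 15.12 in the urothelium and 15.96 and 15.89 in the collecting duct. The higher sum of urothelium pool 3 held a Calb1 value of 14.35, against 10.44 and 7.13 in pools 1 and 2. Aqp2, Wnt9b and Hsd11b2 were also highest in pool 3 among the urothelial pools, while Aqp3, Scnn1b, Scnn1g and Wnt7b were lowest there. Endothelial markers (12.08 to 13.59 on all arrays) had none of 7 called in the 4 comparisons with the mean of the others, nor any unadjusted p under 0.05. Leukocyte markers (10.86 to 13.11) had 1 of 5 called higher in the collecting duct, beside 1.42% of all genes. It was Ptprc, by 4.2 (limma adjusted p = 0.0493), and the other 4 differed by -0.61 (Csf1r) to 0.09 (Laptm5). None of the 5 was called in the other 3 such comparisons, where 1 had an unadjusted p under 0.05. The part of these other cell types, and of the Gapdh ratios, in the keratin differences was not tested.

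**Figure D4:**
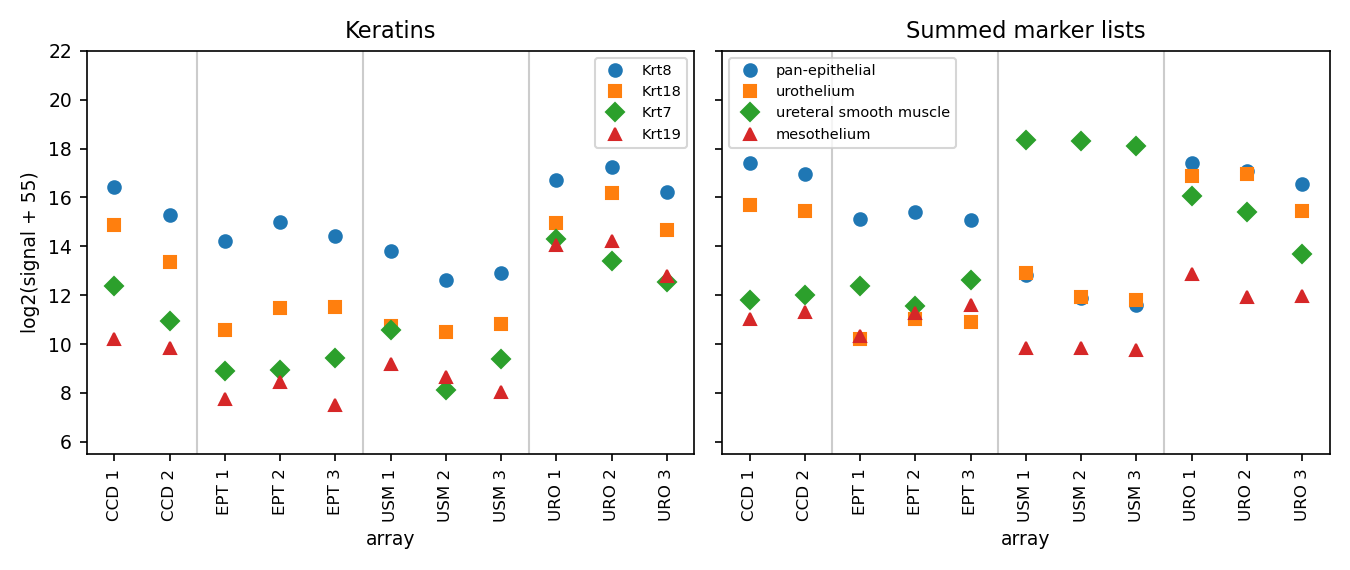
Left, Krt8, Krt18, Krt7 and Krt19 on each array; right, the summed level of the pan-epithelial, urothelial, smooth muscle and mesothelial marker lists on the same arrays, all in log2(signal + 55). Pan-epithelial markers are lowest in the 3 muscle pools, at 11.59 to 12.81, and muscle markers in the urothelium fall between those of the muscle and those of the kidney epithelia.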

How the data were processed

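Affymetrix mouse arrays of 11 tissue pools were analysed, grouped by the structure in each label; replicate numbers follow accession order and pair nothing. For 45101 probe sets the authors deposited linear intensity signals made with GCOS, per the submitters' processing notes; its version is not given in the sources used here. A mean of 1500, without the lowest and highest 2% of values, was found on every array, so the authors' scaling was kept. No detection calls were used. The number of arrays limits the precision.

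The scale used was log2(signal + 55), with the pseudocount set near the 20th percentile of the signals, which shrinks differences of dim genes. The platform annotation gave 1 symbol to 34945 probe sets, and several to 932; 9160 are unnamed here and 64 are controls. A check against RefSeq (GRCm38.p6) through Entrez identifiers covered 34741 of them and changed 0 symbols. A probe set above its array's median on at least 2 arrays was kept (24427 with 1 symbol), and the one with the highest mean stood for a gene, which left 13614 genes. One limma fit (limma 3.58.1, R 4.3.3; 7 residual and 6.38 prior degrees of freedom) gave 8 comparisons, adjusted by Benjamini-Hochberg over all genes in each. Calls needed an adjusted p under 0.05 and an absolute log2 difference of at least 1. The scripts were tested on simulated data. Every keratin is accounted for: those tested are named with values, the others by class. Members, classes and lists were chosen with earlier results of these data known. Keratins not on the array (Krt9, Krt39, Krt40, Krt87 and Krt90 of the 53 in RefSeq) were not analysed here. Alternatives covered normalization, pseudocount, filter, probe set choice, label batch and leaving out each array.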

Additional observations from a re-analysis of the deposited data

How the results depend on the processing

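No called difference changed sign under any alternative run. Of the 26 calls over the 8 comparisons, 26 kept their call with quantile normalization, with probe sets averaged per gene and with the label batch as a random block, 25 with a pseudocount of 190, 24 without a filter, 23 with a pseudocount of 12 and 12 with the label batch as a fixed block; 20 of the 20 with a value did so with the filter at the 75th percentile. Leaving out the x, s and a probe set types removed Krt7 and Krt8, which have no other kind, and the 17 calls with a value were kept; by that removal the count fell to 3 in the urothelium, 3 in the muscle and 0 between proximal tubule and muscle. With the fixed block the counts were 0 in the urothelium, 1 in the proximal tubule, 3 in the muscle, 0 between urothelium and collecting duct and 0 between proximal tubule and muscle; the cause was not tested. Between proximal tubule and muscle the count was 2 with quantile normalization and 0 with a pseudocount of 12 or without a filter. In the collecting duct it was 1 with a pseudocount of 190. Leaving out 1 array gave 3 to 6 keratins called in the urothelium, 0 to 1 in the collecting duct, 4 in every case in the proximal tubule and 3 to 6 in the muscle against the mean of the others. It gave 0 to 2 between urothelium and collecting duct, 5 to 6 between urothelium and muscle, 0 to 4 between collecting duct and proximal tubule and 0 to 1 between proximal tubule and muscle. Without a collecting duct pool the lone one left is assumed to vary like the other structures. Keratins tested numbered 22, and 19 without the x, s and a types. No paired analysis was possible because no pair of structures shares 2 or more of the numbers in the sample titles; the date-like mark was used as the block. Probe sets near the array medians, which include most keratins, limit what can be measured.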
